A study of Danio rerio with 12 samples.

Results

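Transcripts of 7 zebrafish genes that are widely read as targets of Yap and Taz were followed in clusters of dorsal forerunner cells (DFCs), the progenitors of the Kupffer's vesicle, the organ that sets left-right asymmetry in the fish embryo. The genes are cyr61, ctgfa, ctgfb, ankrd1a, ankrd1b, nuak2 and igfbp3. They were taken by symbol from a table of 31953 genes, and all 7 were found in it. All embryos carried the Tg(sox17:GFP) transgene, which marks DFCs by fluorescence, and all received a morpholino at the 1-cell stage. Embryos of the Vgll4l-KD group received a morpholino against vgll4l, those of the Yap/Taz-KD group received morpholinos against yap1 and wwtr1 (Taz) together, and those of the control group received a standard control morpholino. At 90% epiboly a single DFC cluster was dissected from an embryo under fluorescence for each library, with 4 libraries per group. Each group rests on morpholinos in the whole embryo, so cells outside the cluster were depleted too, and a dissected cluster can carry cells that surround it.

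In the Hippo pathway a kinase cascade keeps the coactivators Yap and Taz out of the nucleus. Once in the nucleus they bind the DNA-binding Tead factors and switch on target genes, and Vgll4 proteins compete with them for Tead in mammalian cells. The matricellular genes of the CCN family (Cyr61, Ctgf) and Ankrd1 are the usual readouts of this activity in cultured mammalian cells, and the kinase gene NUAK2 and the binding protein gene IGFBP3 are also read as targets there.

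Values are normalized counts, that is, reads assigned to a gene divided by a scaling factor of the library. A gene was tested where its mean over the 12 libraries was at least 1 normalized count, which left 17609 genes. A gene passed in a comparison if limma on log2(normalized count + 1) gave an adjusted p under 0.05 and a log2 fold change at or beyond 1 in either direction. Such a fold change understates the change of a gene that is near 0 in 1 group, so the reads behind those values are given as well. Between 8698990 and 11235726 reads per library were assigned to genes in Vgll4l-KD clusters, 9071323 to 10774775 in Yap/Taz-KD clusters and 4487894 to 6148871 in control clusters. At these depths, 3 reads over a whole group of 4 libraries correspond to a mean of 0.670 normalized counts in the Vgll4l-KD group, 0.545 in the Yap/Taz-KD group and 0.998 in the control group. These values are taken as the limit that a count of 0 allows. The reads carry no molecular identifiers, so these limits and the intervals of read ratios cover counting error only.

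Several properties of the libraries bear on every value. The variance between 2 libraries of a group was 2.31 to 24.9 times counting noise for Vgll4l-KD, 1.63 to 3.12 times for Yap/Taz-KD and 1.92 to 10.4 times for control, and p-values measure this spread only. When near-identical libraries were averaged, the 4 Yap/Taz-KD libraries became a single unit. Control replicates 1 and 2 were joined, as were 3 and 4, and Vgll4l-KD replicates 3 and 4. SDs and p-values treat each group as 4 separate libraries, and whether they are separate replicates was not tested. If they are not, the p-values given here are too small. vgll4l transcripts lay at 1016 to 1107 normalized counts in Vgll4l-KD clusters, at 1556 to 1677 in Yap/Taz-KD clusters and at 6694 to 7266 in control clusters. yap1 lay at 1368 to 1547 in Vgll4l-KD clusters, at 1738 to 1802 in Yap/Taz-KD clusters and at 2122 to 2391 in control clusters, and wwtr1 had 11 reads in the Vgll4l-KD group, 50 in the Yap/Taz-KD group and none in the control group. A morpholino blocks splicing or translation, so these RNA levels do not measure the knockdown. The DFC genes sox17 and sox32 averaged 8628 and 12952 normalized counts in Vgll4l-KD clusters, 9686 and 12884 in Yap/Taz-KD clusters and 18140 and 27536 in control clusters, while dand5 was at 0 in both knockdown groups and averaged 2.86 in control clusters, from 8 reads. foxj1a averaged 4300, 5206 and 22546 normalized counts in Vgll4l-KD, Yap/Taz-KD and control clusters. The DFC genes tbxta, cftr and rfx2 were also lower in both knockdowns, whereas cxcr4a and dnah9 did not share this fall. In Vgll4l-KD, Yap/Taz-KD and control clusters cxcr4a averaged 2477, 2795 and 2826 normalized counts, and dnah9 averaged 446, 177 and 26.7. In bulk clusters, fewer cells of a type and less RNA per cell cannot be told apart.

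The 7 genes did not move as 1 group. Each of the 4 that were detected above a few reads had a pattern of its own across the 3 groups: cyr61 was read almost only in Vgll4l-KD clusters, ankrd1a almost only in Yap/Taz-KD clusters, igfbp3 almost only in control clusters, and nuak2 in all 3 groups. The other 3, ctgfa, ctgfb and ankrd1b, had between 0 and 2 reads in all 12 libraries together and were not tested. cyr61, ankrd1a and igfbp3 met the minimum mean only through the group that held nearly all their reads. Their p-values and ranks in comparisons with that group thus describe a difference that passing the minimum already required.

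**Figure D1:**
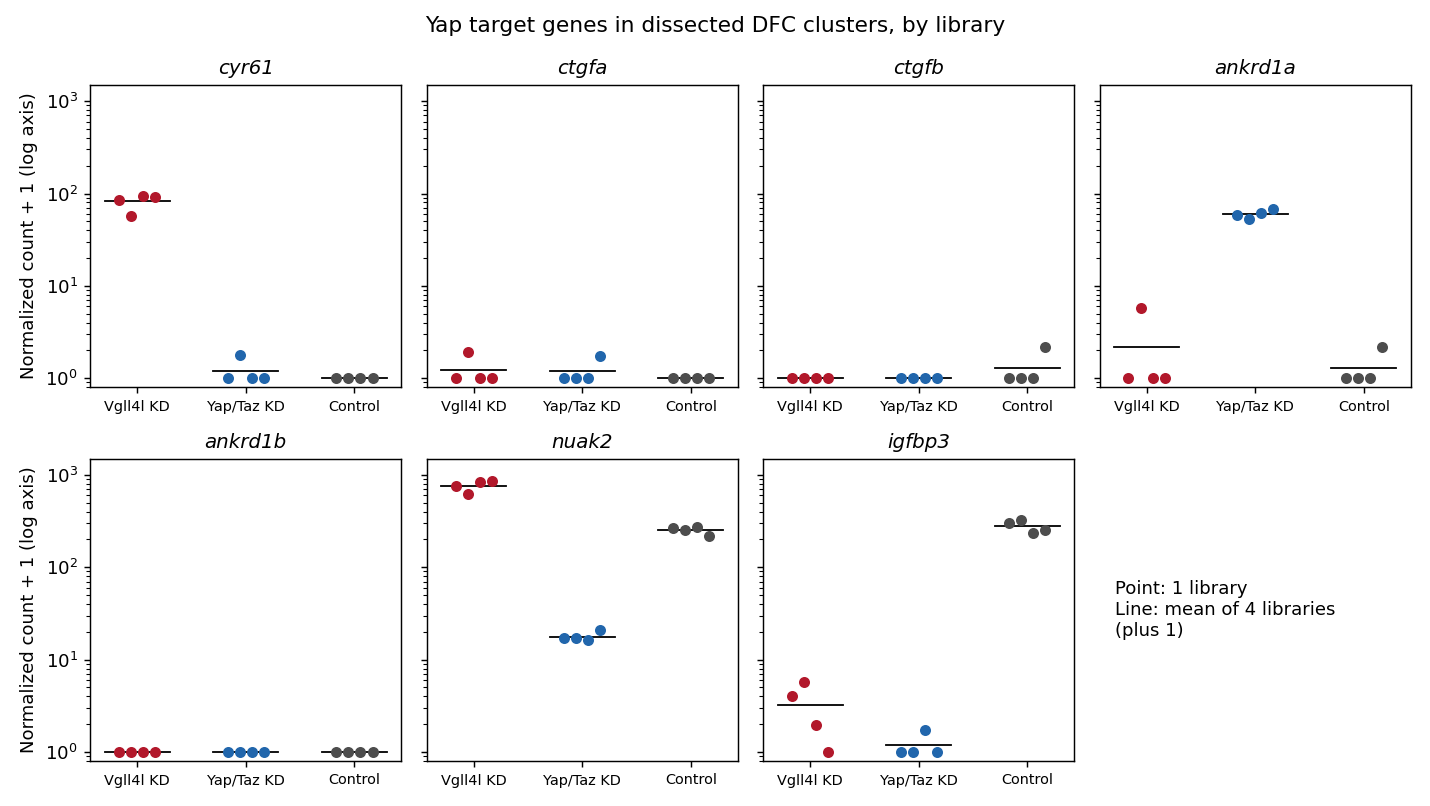
Normalized count plus 1 (log axis) of each of the 7 genes in every library of the Vgll4l-KD, Yap/Taz-KD and control groups, with a line at the mean of 4 libraries; a library without reads sits at the bottom, at 1. nuak2 is the gene with reads in all 12 libraries, at 616.5 to 849.7 normalized counts in Vgll4l-KD clusters, 15.2 to 19.7 in Yap/Taz-KD clusters and 216.7 to 271.7 in control clusters.

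The first group of readouts is the CCN family, which encodes secreted matricellular proteins that bind integrins and growth factors. cyr61 (ENSDARG00000023062; also called ccn1) had 84.1, 56.6, 92.8 and 91.2 normalized counts in the 4 Vgll4l-KD libraries, against 0 in each of the 4 control libraries. The Yap/Taz-KD libraries had 0, 0.798, 0 and 0, of which the value above 0 stands for 1 read. Every Vgll4l-KD library thus lay above every library of the other groups, and the lowest of them was replicate 2.

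The Vgll4l-KD mean of cyr61 was 81.2 ± 16.8 (SD, n = 4), from 364 reads, with no read in the control group. This is at least 81.3-fold higher than a control group at the limit of 3 reads. The log2 fold change was 6.33 (standard error 0.26, limma adjusted p = 3.5e-11), and 2.21% of the tested genes had a higher one in that comparison. Against Yap/Taz-KD clusters cyr61 was higher by 6.12 on the log2 scale (adjusted p = 6.2e-11), with a read ratio of 448 at equal depth (95% counting interval 79.9 to 17743). With 1 read in the Yap/Taz-KD group and none in the control group, both were under the limit, and a difference between them was not detectable at this depth (adjusted p = 0.47). A fall of cyr61 after Yap/Taz knockdown could not have been seen, since the control libraries held no read.

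The 2 copies of connective tissue growth factor, the other CCN readout, were almost absent. ctgfa (ENSDARG00000042934; ccn2a) had 0.944 normalized counts in Vgll4l-KD replicate 2 and 0.730 in Yap/Taz-KD replicate 4, each from 1 read, and 0 in the other 10 libraries. ctgfb (ENSDARG00000104292; ccn2b) had 1.18 in control replicate 4, again from 1 read, and 0 in the other 11. No group exceeded its limit for either gene, so neither knockdown showed a rise above that limit. A fall of the ctgf genes could not have been seen, since the control group was under its limit too.

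Ankyrin repeat domain 1 is a nuclear and sarcomeric protein that is induced by stretch in muscle. Of its 2 zebrafish copies, ankrd1a (ENSDARG00000075263) had 0, 4.72, 0 and 0 normalized counts in Vgll4l-KD libraries and 58.0, 51.9, 59.9 and 66.4 in Yap/Taz-KD libraries. The control libraries had 0, 0, 0 and 1.18. The Yap/Taz-KD libraries stood above all others, and the 5 reads of the Vgll4l-KD group came from replicate 2 alone.

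After Yap/Taz knockdown ankrd1a averaged 59.0 ± 5.98 normalized counts (SD, n = 4) from 326 reads, against 0.296 ± 0.592 from 1 read in control clusters. The log2 fold change was 5.62 (standard error 0.51, limma adjusted p = 1.2e-07), and the read ratio at equal depth was 178 (95% counting interval 31.7 to 7044). Vgll4l-KD clusters averaged 1.18 ± 2.36 and were lower than Yap/Taz-KD clusters by a log2 fold change of -5.27 (adjusted p = 2.7e-07). Against control clusters the Vgll4l-KD difference of 0.35 did not pass (95% interval -0.75 to 1.44, adjusted p = 0.53), and without Vgll4l-KD replicate 2 it was -0.28. The other copy, ankrd1b (ENSDARG00000076192), had no read in any of the 12 libraries.

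nuak2 (ENSDARG00000063661) encodes a kinase of the AMPK-related family that acts on the actomyosin cytoskeleton. It is the only one of the 7 genes that was well detected in every group. Vgll4l-KD libraries had 767.2, 616.5, 836.4 and 849.7 normalized counts, Yap/Taz-KD libraries had 16.0, 16.0, 15.2 and 19.7, and control libraries had 263.9, 253.3, 271.7 and 216.7. The 3 groups did not overlap, and the order was Vgll4l-KD, control, Yap/Taz-KD from high to low.

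nuak2 was thus higher than control in 1 knockdown and lower in the other. The means were 767 ± 107 in Vgll4l-KD clusters, 16.7 ± 2.04 in Yap/Taz-KD clusters and 251 ± 24.3 in control clusters (SD, n = 4 each). In Vgll4l-KD clusters the log2 fold change was 1.60 against control (standard error 0.13, limma adjusted p = 2.7e-08), a 3.03-fold rise. In Yap/Taz-KD clusters nuak2 fell by 3.83 on the log2 scale against control (standard error 0.13, adjusted p = 5.0e-12), a 14.3-fold fall.

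Tested directly, Vgll4l-KD clusters exceeded Yap/Taz-KD clusters by 5.44 in nuak2 on the log2 scale (95% interval 5.16 to 5.71, adjusted p = 3.6e-13). These sizes are not rare among the genes of the table: 24.7% of the tested genes had a higher log2 fold change than nuak2 in the Vgll4l-KD comparison with control, and 16.7% had a lower one in the Yap/Taz-KD comparison. Between the knockdowns, 4.69% of the tested genes had a higher log2 fold change than nuak2.

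igfbp3 (ENSDARG00000099144) encodes a secreted protein that binds insulin-like growth factors. It had 3.06, 4.72, 0.977 and 0 normalized counts in Vgll4l-KD libraries, and 0, 0, 0.722 and 0 in Yap/Taz-KD libraries. Control libraries had 304.4, 323.5, 233.4 and 254.6. Both knockdowns lay far below the lowest control library.

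The igfbp3 means were 2.19 ± 2.12 in Vgll4l-KD clusters (10 reads), 0.180 ± 0.361 in Yap/Taz-KD clusters (1 read) and 279 ± 42.0 in control clusters (822 reads). The log2 fold change against control was -6.74 in Vgll4l-KD clusters (standard error 0.45, limma adjusted p = 5.0e-09), and control exceeded Vgll4l-KD by a read ratio of 122 at equal depth (95% counting interval 66.3 to 256). In Yap/Taz-KD clusters it was -7.92 (standard error 0.45, adjusted p = 9.4e-10), with a read ratio of 1507 of control over Yap/Taz-KD (95% counting interval 269.8 to 59605). A lower log2 fold change was found for 3.07% of the tested genes after Vgll4l knockdown and for 0.960% after Yap/Taz knockdown. igfbp3 is the only member that passed in the same direction in both knockdowns, which were compared with the same 4 control libraries.

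Between the knockdowns igfbp3 was higher in Vgll4l-KD clusters by 1.18 on the log2 scale (adjusted p = 0.029), from 10 reads against 1, and the libraries of the 2 groups overlapped at 0. This call was lost without Vgll4l-KD replicate 1 (0.97, adjusted p = 0.087) or 2 (0.81, adjusted p = 0.088), and without Yap/Taz-KD replicate 1, 2 or 4 (1.12 each, adjusted p = 0.064). It was also lost in a fit of these 2 groups alone (adjusted p = 0.084) and with a pseudocount of 10 (0.24, adjusted p = 0.13). The same held where near-identical libraries were averaged (1.46), which left a single Yap/Taz-KD unit.

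**Figure D2:**
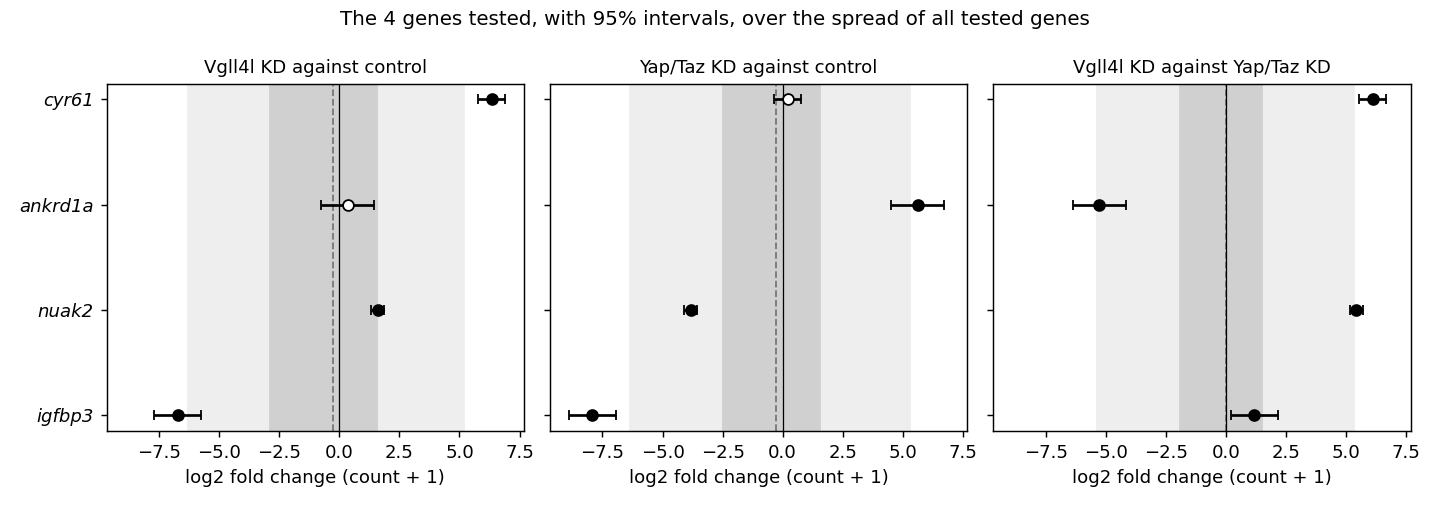
log2 fold changes (on normalized count + 1) of the 4 tested genes with 95% intervals in the 3 comparisons; filled points passed, the dark and light bands hold the middle 50% and 90% of all 17609 tested genes, and the dashed line is their median. igfbp3 lies beyond the light band in both comparisons with control, at -6.74 for Vgll4l-KD and -7.92 for Yap/Taz-KD.

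Counted over the 7 genes, Vgll4l knockdown gave 2 higher (cyr61, nuak2), 1 lower (igfbp3), 1 that did not pass (ankrd1a) and 3 not tested. Over all tested genes of that comparison, 30.5% were called higher and 40.9% lower, and in 79.2% the libraries of the 2 groups did not overlap. Yap/Taz knockdown gave 1 higher (ankrd1a), 2 lower (nuak2, igfbp3), 1 that did not pass (cyr61) and 3 not tested, where 30.0% of all tested genes were called higher and 38.7% lower, and 80.9% did not overlap. Between Vgll4l-KD and Yap/Taz-KD clusters, 3 were higher (cyr61, nuak2, igfbp3) and 1 lower (ankrd1a), where 30.0% of all tested genes were called higher and 33.2% lower, and 75.3% did not overlap. Counts over 4 genes are too small to be read against these shares. Moreover, cyr61, ankrd1a and igfbp3 met the minimum mean through 1 group each, so that they had to differ between groups. The counts are a description, as are the p-values and ranks of these genes in comparisons with that group.

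Within the Vgll4l-KD group, replicate 2 differed from the other libraries in several members. Vgll4l-KD replicate 2 had the lowest cyr61 (56.6 normalized counts) and the lowest nuak2 (616.5) of its group, and so lay nearest to control for both. It also had the highest igfbp3 (4.72), but from 5 reads against 4 in replicate 1, a difference within counting error. With 1 library apart, whether the members vary together was not tested. Replicate 2 also held all 5 reads of ankrd1a and the 1 read of ctgfa in the group. The same library had the lowest share of normalized counts on the list of 13 enveloping layer genes in its group, 3.41% against 3.72% to 3.86% in the other 3, and the lowest share on the list of 6 epidermal genes, 0.620% against 0.697% to 0.719%. On other lists it did not lie nearest to control: it had the highest share of its group on the yolk syncytial list (0.598%) and on the neural list (0.0184%), and its DFC share (0.467%) was not the highest. This library also stood apart over all well-read genes, with a variance of 15.7 to 24.9 times counting noise against the other 3, which differed among themselves by 2.31 to 4.50 times, so its distance was not limited to these members.

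Markers of neighbouring cell types moved with the groups. Over all tested genes, 30.5% were called higher and 40.9% lower after Vgll4l knockdown, and 30.0% and 38.7% after Yap/Taz knockdown. The counts of calls in the marker lists below were not tested against these shares. The enveloping layer, the outer epithelium from which DFCs arise, was read through 13 keratin, claudin and related genes. Their sum was 3.41% to 3.86% of normalized counts in Vgll4l-KD clusters, 0.639% to 0.646% in Yap/Taz-KD clusters and 0.472% to 0.501% in control clusters, and 9 of 13 passed as higher and 1 as lower in Vgll4l-KD clusters. In Yap/Taz-KD clusters 1 passed as higher, 4 passed as lower and 8 did not pass. The slightly higher sum thus went against most of the genes that passed there. The 1 higher gene was krt18a.1, with 19422 normalized counts in Yap/Taz-KD clusters and 8001 in control clusters. The lower ones were krt5, krt17, agr1 and krt1-c5, of which krt1-c5 had only 5 reads in the control group. The 6 epidermal genes summed to 0.620% to 0.719% in Vgll4l-KD clusters, 0.157% to 0.161% in Yap/Taz-KD clusters and 0.0783% to 0.0877% in control clusters, with 5 of 6 higher after Vgll4l knockdown. After Yap/Taz knockdown 2 were higher and 2 lower (tp63, gata2a), and most of the sum came from krt8, with 10621 in Yap/Taz-KD clusters and 5509 in control clusters (log2 fold change 0.95, not passed). krt8 also made up most of the sum in Vgll4l-KD clusters, with 54481. The epidermal sum was thus mainly a reading of 1 keratin gene in every group, including Vgll4l-KD replicate 2. cyr61 and nuak2 were high in Vgll4l-KD clusters, where both sums were highest. In Yap/Taz-KD clusters both sums also lay above control. There nuak2 averaged 16.7 normalized counts, against 251 in control clusters, and cyr61 had 1 read. No gene of either list was at 0 in Vgll4l-KD or control clusters, and krt1-c5 was at 0 in Yap/Taz-KD clusters.

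The yolk syncytial layer, which lies under the DFCs, was read through 12 genes of lipoprotein and transport function. Their sum was 0.581% to 0.598% in Vgll4l-KD clusters, 1.27% to 1.29% in Yap/Taz-KD clusters, in which ankrd1a was high, and 0.199% to 0.221% in control clusters. The sum thus lay above control in Vgll4l-KD clusters too, where ankrd1a had 5 reads. Most of the sum came from apoeb in every group, with 37929 normalized counts in Vgll4l-KD, 61848 in Yap/Taz-KD and 10084 in control clusters. In each knockdown 9 of 12 passed as higher. The lower calls were apoc1 (1036 in Vgll4l-KD clusters against 2097 in control clusters) and ttr after Vgll4l knockdown, and ttr after Yap/Taz knockdown, and ttr was at 0 in both knockdowns. ttr met the minimum mean only through the control group, from 11 reads there. The DFC list of 10 genes summed to 0.454% to 0.470% in Vgll4l-KD clusters, 0.629% to 0.631% in Yap/Taz-KD clusters and 1.55% to 1.59% in control clusters, in which igfbp3 was high, and dand5 was at 0 in both knockdowns. Of the 9 DFC genes tested, 7 were lower and 1 higher after Vgll4l knockdown, and 6 were lower and 1 higher after Yap/Taz knockdown. The higher gene was dnah9 in both, and cxcr4a passed in neither. The list includes vgll4l, the target of one of the knockdowns. igfbp3 averaged 279 normalized counts in control clusters, 2.19 in Vgll4l-KD and 0.180 in Yap/Taz-KD clusters. Whether the level of igfbp3 follows the DFC share was not tested.

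Genes of mesoderm and neural ectoderm took smaller shares than the DFC, enveloping layer and yolk syncytial lists in every group. The 5 paraxial mesoderm genes summed to 0.0581% to 0.0617% in Vgll4l-KD clusters, 0.00673% to 0.00740% in Yap/Taz-KD clusters, where mespaa was at 0, and 0.0827% to 0.0950% in control clusters. Most of the sum came from tbx16 in Yap/Taz-KD clusters (479 normalized counts) and in control clusters (5303). The paper reports that tbx16 is expressed in DFCs, so this sum does not read paraxial mesoderm alone. The calls after Vgll4l knockdown went both ways: tbx16 was lower (2284 in Vgll4l-KD clusters against 5303 in control clusters), while myf5 (1284 against 5.15) and tbx6 (506 against 2.05) were higher. tbx6 met the minimum mean only through the Vgll4l-KD group, so its call describes a difference that passing the minimum already required. After Yap/Taz knockdown 3 were lower and none higher. The 10 axial mesoderm genes summed to 0.101% to 0.106% in Vgll4l-KD clusters, 0.139% to 0.145% in Yap/Taz-KD clusters, where col9a1a and col8a1a were at 0, and 0.0991% to 0.106% in control clusters, with 3 higher and 1 lower of 9 tested after Vgll4l knockdown and 2 higher and none lower after Yap/Taz knockdown. The 5 neural genes summed to 0.0159% to 0.0184% in Vgll4l-KD clusters, 0.0364% to 0.0374% in Yap/Taz-KD clusters and 0.0136% to 0.0161% in control clusters. After Yap/Taz knockdown 2 were higher and 2 lower: sox3 carried the sum (2571 in Yap/Taz-KD clusters against 188 in control clusters), while zic2b (1.77 against 465) and sox19a (21.3 against 328) were lower. After Vgll4l knockdown 2 were higher and none lower. The part of these cell types in the levels of the 7 genes was not tested.

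**Figure D3:**
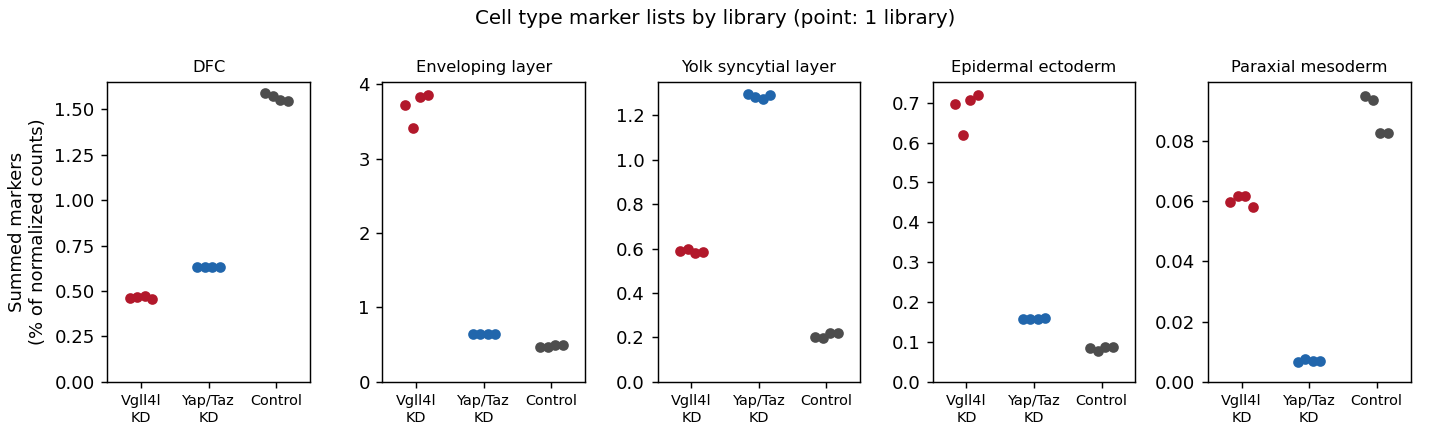
Summed level of 5 marker lists as a percentage of the normalized counts of each library, by group (each point is 1 library). Enveloping layer genes reach 3.41% to 3.86% in Vgll4l-KD clusters, yolk syncytial layer genes 1.27% to 1.29% in Yap/Taz-KD clusters and DFC genes 1.55% to 1.59% in control clusters.

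Relatives of the 7 genes gave a further view of the same families. Of 18 relatives found in the table, 7 were tested, of which 2 were higher, 2 lower and 3 did not pass after Vgll4l knockdown, and none was higher, 5 were lower and 2 did not pass after Yap/Taz knockdown. Counts over 7 genes are too small to be read against the shares over all tested genes. The CCN relative cyr61l1 had 200 ± 21.7 normalized counts in Vgll4l-KD clusters, 263 ± 21.8 in Yap/Taz-KD clusters and 317 ± 18.6 in control clusters (SD, n = 4 each). Its log2 fold changes of -0.66 and -0.27 against control stayed under the fold threshold, although the limma adjusted p was 1.2e-05 for Vgll4l-KD and 0.016 for Yap/Taz-KD. Of the 4 CCN relatives tested, 2 were higher and none lower after Vgll4l knockdown. wisp2 had 44.6 ± 12.4 normalized counts in Vgll4l-KD clusters, 0.708 ± 1.02 in Yap/Taz-KD clusters and 1.07 ± 0.743 in control clusters (log2 fold change 4.51 in Vgll4l-KD clusters, adjusted p = 1.6e-07). cyr61l2 had 13.2 ± 3.72 in Vgll4l-KD clusters, no read in Yap/Taz-KD clusters and 4.52 ± 4.20 in control clusters, and it passed as higher in Vgll4l-KD clusters, by a log2 fold change of 1.60 (adjusted p = 0.0024), and as lower in Yap/Taz-KD clusters, by one of -2.18 (adjusted p = 0.00021). cyr61l1, wisp2 and cyr61l2 were chosen after their values had been seen. wisp2 met the minimum mean only through the Vgll4l-KD group, so its p-value describes a difference that passing the minimum already required.

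igfbp1a, which encodes another binding protein of insulin-like growth factors, passed as lower in both knockdowns. It had 2.08 ± 2.39 normalized counts in Vgll4l-KD clusters, 89.0 ± 11.8 in Yap/Taz-KD clusters and 195 ± 14.4 in control clusters, with log2 fold changes against control of -6.25 (adjusted p = 6.7e-10) after Vgll4l knockdown and -1.13 (adjusted p = 0.0080) after Yap/Taz knockdown. The Vgll4l-KD level was below the Yap/Taz-KD level by a log2 fold change of -5.11 (adjusted p = 6.9e-09), whereas for igfbp3 the Yap/Taz-KD mean was the lower one. igfbp5b had the order of means of igfbp3, with 1.81 ± 1.55 normalized counts in Vgll4l-KD clusters, no read in Yap/Taz-KD clusters and 29.8 ± 10.5 in control clusters, and it passed as lower in both knockdowns (igfbp5b was chosen after its values had been seen). Like igfbp3, igfbp5b met the minimum mean only through the control group, so these calls describe a difference that passing the minimum already required. Of the 3 relatives of igfbp3 that were tested, 2 were lower and 1 did not pass after Vgll4l knockdown, and all 3 were lower after Yap/Taz knockdown. Among them igfbp2b had 17 reads in the control group and none in the Yap/Taz-KD group. These counts are too small to be read against the 40.9% and 38.7% of all tested genes that were called lower. In RefSeq's annotation of the assembly GRCz12tu, igfbp1a is the protein-coding gene next to igfbp3.

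The position of the other members was read in the same way. Of 14 protein-coding genes next to the 7 members, 12 were matched to the table and 8 were tested. dstyk, the kinase gene next to nuak2, had 1009 ± 175 normalized counts in Vgll4l-KD clusters, 473 ± 24.3 in Yap/Taz-KD clusters and 342 ± 25.4 in control clusters, so that it passed as higher in Vgll4l-KD clusters, as nuak2 did, and did not pass in Yap/Taz-KD clusters (log2 fold change 0.47), where nuak2 was lower. kif20ba, the kinesin gene next to ankrd1a, had 566 ± 58.8 in Vgll4l-KD clusters, 39.6 ± 7.06 in Yap/Taz-KD clusters and 381 ± 68.2 in control clusters. znhit6, next to cyr61, had 2.32 ± 3.51, 96.1 ± 4.83 and 253 ± 28.8 in Vgll4l-KD, Yap/Taz-KD and control clusters. None of these 3 neighbours shared the order of mean levels of its member. They were looked up after the levels of the members had been seen.

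A wider list of 32 genes that are often counted among Yap and Taz targets was examined beside the 7, of which 30 were in the table (not axl and ptpn14) and 24 were tested. The gene listed as myofl was found only under the symbol fer1l4, and its values are those of fer1l4. After Vgll4l knockdown 8 were higher, 11 lower and 5 did not pass, with a median log2 fold change of -0.45 against -0.26 over all tested genes. After Yap/Taz knockdown 6 were higher, 13 lower and 5 did not pass, with a median of -1.16 against -0.27 over all tested genes. Between Vgll4l-KD and Yap/Taz-KD clusters 6 were higher, 7 lower and 11 did not pass, with a median of 0.31 against 0. In each comparison the median was the same with the genes at 0 in 1 group set to their bound. Over all tested genes, 30.5% were called higher and 40.9% lower after Vgll4l knockdown, and 30.0% and 38.7% after Yap/Taz knockdown. Between the knockdowns the shares were 30.0% and 33.2%. The counts of the list were not tested against these shares. f3a, crim1, fjx1, ccdc80, rbms3 and asap1a met the minimum mean only through the control group. f3b did so only through the Yap/Taz-KD group, and myofl and asap1b only through the Vgll4l-KD group. In comparisons with that group their calls describe a difference that passing the minimum already required. The counts and medians of the list rest partly on such genes.

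The named falls of this list were shared by both knockdowns, each against the same control libraries. f3a, which encodes tissue factor, the starter of blood clotting, had 2 reads in the Vgll4l-KD group, none in the Yap/Taz-KD group and 98.3 to 183 normalized counts in the 4 control libraries. Control exceeded Vgll4l-KD by a read ratio of 277 (95% counting interval 76.2 to 2297), and Yap/Taz-KD clusters were at least 234-fold lower than control.

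crim1, which encodes a membrane protein that binds bone morphogenetic proteins, had 4 reads in the Vgll4l-KD group, none in the Yap/Taz-KD group and 36.7 to 73.2 normalized counts in control libraries. It had log2 fold changes of -5.07 (adjusted p = 2.9e-09) after Vgll4l knockdown and -5.89 (adjusted p = 6.2e-10) after Yap/Taz knockdown. fstl1b, a follistatin-like gene, had 1150 ± 88.7 normalized counts in Vgll4l-KD clusters, 579 ± 33.4 in Yap/Taz-KD clusters and 3957 ± 347 in control clusters, and fell by 1.78 and by 2.77 on the log2 scale. f3a, crim1 and fstl1b were thus low in both knockdowns, as igfbp3 was. f3a and crim1 met the minimum mean only through the control group, as igfbp3 did. Their values against control thus describe a difference that passing the minimum already required.

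The genes named as rises were not the same for Vgll4l and Yap/Taz knockdown, but this rests partly on the mean required for naming. gadd45ab, mycb and ccnd1, named below for Yap/Taz knockdown, passed as higher in both knockdowns. The Vgll4l-KD means of gadd45ab (18.8 normalized counts) and mycb (34.3) were too low for naming in the comparison of Vgll4l-KD with control. The named genes therefore do not show that rises were shared less than falls. birc5a, which encodes survivin, a protein of the mitotic chromosomal passenger complex, had 1946 ± 45.4 normalized counts in Vgll4l-KD clusters, 218 ± 7.67 in Yap/Taz-KD clusters and 226 ± 17.0 in control clusters. Its log2 fold change was 3.10 in Vgll4l-KD clusters (adjusted p = 6.6e-14), and it did not pass in Yap/Taz-KD clusters (-0.05, adjusted p = 0.45). The difference between the knockdowns was 3.15 (adjusted p = 1.1e-13). This is the side on which cyr61 lay.

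birc5b and arhgef17 had the order of levels of nuak2. birc5b, the other copy of survivin, had 118 ± 11.8 normalized counts in Vgll4l-KD clusters, 0.531 ± 0.694 in Yap/Taz-KD clusters and 12.9 ± 5.59 in control clusters. Its log2 fold change was 3.21 after Vgll4l knockdown (adjusted p = 2.6e-06) and -3.17 after Yap/Taz knockdown (adjusted p = 3.3e-06). arhgef17, which encodes a guanine nucleotide exchange factor, had 180 ± 41.2 in Vgll4l-KD clusters, 0.200 ± 0.399 in Yap/Taz-KD clusters and 32.9 ± 9.43 in control clusters, with log2 fold changes of 2.43 (adjusted p = 2.8e-06) and -4.83 (adjusted p = 1.8e-09).

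After Yap/Taz knockdown the named rises were gadd45ab, mycb and ccnd1. gadd45ab, a growth arrest and DNA damage gene, had 18.8 ± 1.38 normalized counts in Vgll4l-KD clusters, 202 ± 10.2 in Yap/Taz-KD clusters and 1.45 ± 1.27 in control clusters. mycb, a copy of the Myc transcription factor gene, had 34.3 ± 6.09 in Vgll4l-KD clusters, 115 ± 6.91 in Yap/Taz-KD clusters and 0.405 ± 0.809 in control clusters. ccnd1, which encodes the G1 cyclin D1, had 2972 ± 103 in Vgll4l-KD clusters, 5952 ± 55.7 in Yap/Taz-KD clusters and 848 ± 59.9 in control clusters. All 3 passed as higher in both knockdowns and were lower in Vgll4l-KD than in Yap/Taz-KD clusters, by log2 fold changes of -3.36 (gadd45ab), -1.73 (mycb) and -1.002 (ccnd1). dlc1, a tumour suppressor gene in human, was lower in Vgll4l-KD clusters (35.9 ± 6.82) and higher in Yap/Taz-KD clusters (278 ± 11.5) than in control clusters (102 ± 18.9).

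Some genes of the list are known to act back on the pathway. amotl2a, which encodes an angiomotin that binds Yap, had 645 ± 62.7 normalized counts in Vgll4l-KD clusters, 395 ± 7.79 in Yap/Taz-KD clusters and 912 ± 43.9 in control clusters, with a log2 fold change of -0.50 after Vgll4l knockdown, which did not pass, and a fall by 1.20 after Yap/Taz knockdown (adjusted p = 9.9e-10). lats2, a kinase gene of the Hippo cascade, had 151 ± 16.3 in Vgll4l-KD clusters, 267 ± 6.63 in Yap/Taz-KD clusters and 157 ± 31.1 in control clusters and passed in none of the 3 comparisons. amotl2b, the other copy of amotl2a, had 8.98 ± 3.29 in Vgll4l-KD clusters, 12.5 ± 4.95 in Yap/Taz-KD clusters and 21.7 ± 6.99 in control clusters, and it passed as lower after Vgll4l knockdown (-1.20, adjusted p = 0.0058) and did not pass after Yap/Taz knockdown (-0.78, adjusted p = 0.053). amotl2a, amotl2b and lats2 were chosen after their values had been seen.

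**Figure D4:**
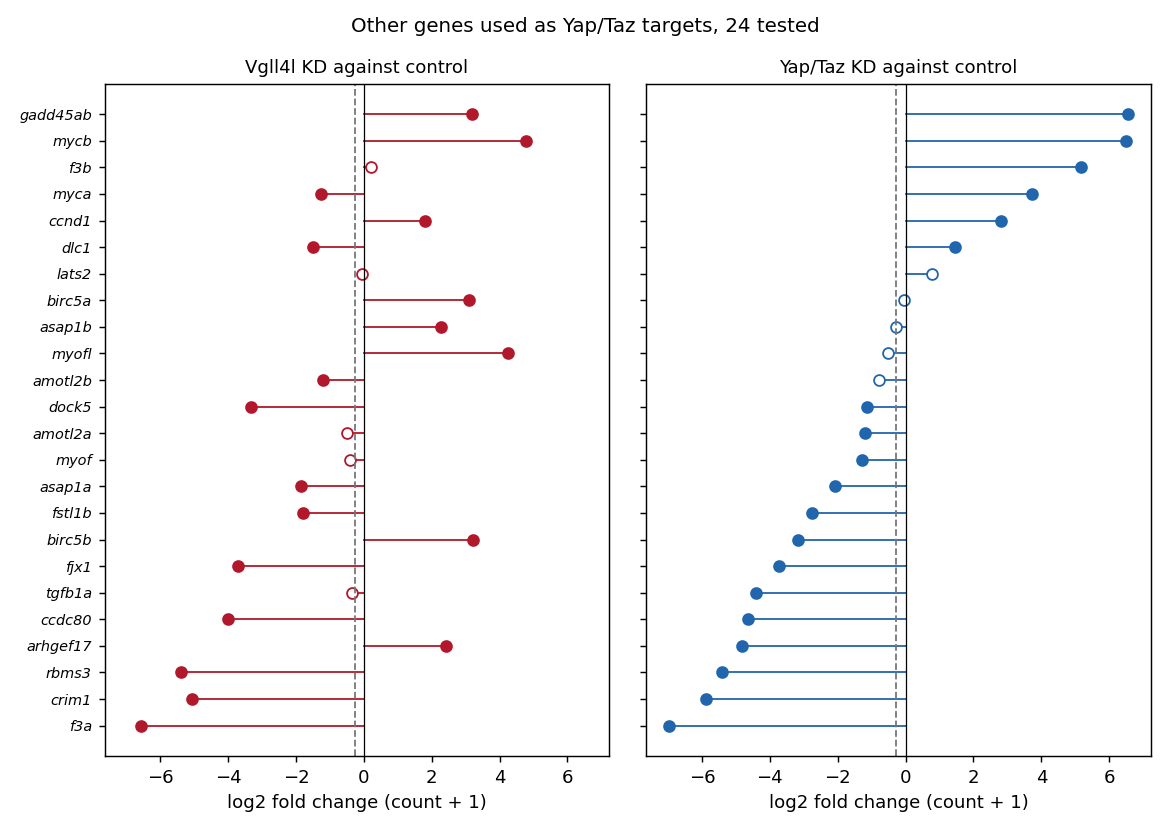
log2 fold changes against control (on normalized count + 1) of the 24 tested genes of the wider target list, ordered by their value after Yap/Taz knockdown; filled points passed and the dashed line is the median of all tested genes. After Vgll4l knockdown 8 are higher and 11 lower (30.5% and 40.9% over all tested genes). After Yap/Taz knockdown 6 are higher and 13 lower (30.0% and 38.7% over all tested genes). Some of these genes met the minimum mean only through 1 group and so had to differ.

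The genes through which Yap and Taz act were read at very different levels. Of the Tead genes, tead1a had 2.51 ± 2.75 normalized counts in Vgll4l-KD clusters, 123 ± 2.92 in Yap/Taz-KD clusters and 73.9 ± 13.5 in control clusters, and tead1b had 37.3 ± 11.2, 1.07 ± 0.910 and 0.564 ± 1.13 in Vgll4l-KD, Yap/Taz-KD and control clusters. tead3b had 54.4 ± 8.36 in Vgll4l-KD clusters, 19.5 ± 2.08 in Yap/Taz-KD clusters and 74.0 ± 19.0 in control clusters, while tead3a, vgll4a and vgll4b stayed at means of 21.7 or less in every group.

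Finally, the genes whose centred log2 levels followed each tested member most closely over the 12 libraries were found among named genes with a mean of at least 50 (9104 to 9105 candidates per member). For cyr61 these were usp48, a ubiquitin protease gene, and HSPB8, a small heat shock protein gene, with root mean square differences of 0.29 and 0.30 on the log2 scale (Pearson's r of 0.996 and 0.995). HSPB8 had 1841 ± 162 normalized counts in Vgll4l-KD clusters, 22.0 ± 1.51 in Yap/Taz-KD clusters and 20.2 ± 5.43 in control clusters. For ankrd1a they were sall3a, a zinc finger transcription factor gene, and C7H11orf68 (0.34 and 0.53), and sall3a had 8.46 ± 10.2 in Vgll4l-KD clusters, 261 ± 17.6 in Yap/Taz-KD clusters and 4.27 ± 0.692 in control clusters.

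nuak2 was followed most closely by adgrl2a, an adhesion G protein-coupled receptor gene, and trib3, a pseudokinase gene (0.24 and 0.28). trib3 had 337 ± 49.9 normalized counts in Vgll4l-KD clusters, 9.01 ± 1.87 in Yap/Taz-KD clusters and 112 ± 17.3 in control clusters. For igfbp3 the nearest were slc46a3, a solute carrier gene, and si:dkey-197j19.5 (0.30 and 0.33), which had 1.52 ± 1.85 (slc46a3) and 1.56 ± 2.23 (si:dkey-197j19.5) in Vgll4l-KD clusters, no read in Yap/Taz-KD clusters, and 228 ± 42.1 and 243 ± 44.6 in control clusters. No member of the wider target list was among these 8 genes. The minimum mean of 50 kept some of that list, such as f3a, crim1 and birc5b, out of the candidates. Their absence therefore does not show that the wider targets differ from the members. The libraries of a group lie close together, so these correlations rest mainly on the 3 group means and are a description.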

How the data were processed

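DFC clusters were dissected from embryos at 90% epiboly, RNA was extracted and cDNA amplified with the SMART-Seq v4 kit, and 50 bp single-end reads were sequenced. The authors used STAR and the GRCz10 build for alignment, featureCounts for gene counts and DESeq2 for normalization; versions are not given in the sources used here. The kit does not mark strand, so overlapping antisense reads cannot be told apart.

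The deposited table holds, per gene and library, a normalized count signal. Its headers call it TPM, but the columns do not share a total, and 100% of values above 0 were whole multiples of the value of 1 read (tolerance 0.001), so whole reads were recovered. Its columns of the authors' log2 fold changes and adjusted p-values were not used.

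The 12 libraries were grouped by their titles. limma 3.58.1 in R 4.3.3 (trend) was fitted on log2(normalized count + 1) to all 12 at once, over the 17609 genes whose mean reached 1, with Benjamini-Hochberg adjustment over all of them. The 3 groups share 1 estimate of the spread. For a group without reads the bound used 3 reads over its libraries, and read ratios at equal depth have exact 95% intervals. Symbols were matched to the table and, by Ensembl ID, to a reference table.

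The 7 genes, the lists, the marker genes and the tests were chosen with earlier results of these data known. Named genes are the 7, their Tead, Yap and Vgll4 partners, relatives that passed and reached a mean of 50 in a group, of the wider list up to 3 rises and 3 falls per comparison among genes that passed and reached a mean of 50, and for each tested member the 2 nearest genes. Exceptions are said to have been chosen after their values were seen, as were the genes next to the members. Alternatives were TMM scaling, scaling to total reads, edgeR 4.0.16 and DESeq2 1.42.0 on recovered reads, a minimum mean of 10 or none, a pseudocount of 0.5 or 10, a fit of 2 groups, the replicate number as a block, near-identical libraries averaged, other fold thresholds and each library left out. The fit was tested on simulated data in which few genes changed and none of those had a low mean. That test therefore does not cover genes with almost no reads in a group, nor data in which most genes change. Ratios between the copies of ctgf and of ankrd1 were planned but could not be tested, since ctgfa, ctgfb and ankrd1b were under the minimum mean. Promoter and protein data were not used here. Gene positions were used only to find the genes next to the members, from RefSeq's annotation of GRCz12tu, whereas the counts rest on GRCz10. Tables and figures were made with matplotlib 3.10.9, scipy 1.17.1, pandas 2.3.3 and numpy 2.4.6 in Python 3.11.15.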

Additional observations from a re-analysis of the deposited data

Results flagged for a closer look

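In 7 of the 14 combinations of gene and group with any spread, 1 library stood apart from the other 3, and in each case it was the only library of its group with a read. They were cyr61 in Yap/Taz-KD replicate 2 (0.798 normalized counts, 1 read), ctgfa in Vgll4l-KD replicate 2 (0.944, 1 read) and in Yap/Taz-KD replicate 4 (0.730, 1 read), and ctgfb in control replicate 4 (1.18, 1 read). ankrd1a stood apart in Vgll4l-KD replicate 2 (4.72, 5 reads) and in control replicate 4 (1.18, 1 read), and igfbp3 in Yap/Taz-KD replicate 3 (0.722, 1 read). Chance alone flags about 5% of groups of well-measured values. Here the gap arises wherever a single library of a group holds any read, and 6 of the 7 values stand for 1 read.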

How the results depend on the processing

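The number of the 7 genes that passed was 3 after Vgll4l knockdown (2 to 3 over the alternatives), 3 after Yap/Taz knockdown (3 in every alternative) and 4 between the knockdowns (3 to 4). After Vgll4l knockdown the count of 2 came with a log2 fold threshold of 2, which nuak2 missed, and between the knockdowns the counts of 3 came without igfbp3. Over all genes, 12570 passed after Vgll4l knockdown, 12100 after Yap/Taz knockdown and 11131 between the knockdowns, with 12484 to 12608, 11994 to 12121 and 11055 to 11135 as each library was left out. ankrd1a after Vgll4l knockdown was 0.35, ranged from -0.28 to 0.63 as each library was left out and changed sign without Vgll4l-KD replicate 2, and cyr61 after Yap/Taz knockdown did so in DESeq2 (-0.17); neither passed in any of the alternatives. The igfbp3 difference between the knockdowns lost its call in 8 of 23 alternatives, which the report names. The scaling moved all genes together: the median log2 fold change after Vgll4l knockdown was -0.26 with the deposited scaling, -0.08 with TMM and -0.47 with total reads, a choice made after seeing the data, and after Yap/Taz knockdown -0.27, -0.15 and -0.31. nuak2 after Vgll4l knockdown was 1.60, 1.82 and 1.32 under these, which is 1.86, 1.89 and 1.79 above that median. Samples with the same replicate number did not deviate together (correlations of -0.056 to 0.025); with a replicate block the counts over all genes were 12563, 12106 and 11128, and the member counts stayed at 3, 3 and 4. Averaging near-identical libraries left a single Yap/Taz-KD unit. The log2 fold changes after Yap/Taz knockdown were then 5.57 for ankrd1a, -3.83 for nuak2 and -7.88 for igfbp3. With 0 to 2 reads in 12 libraries, ctgfa, ctgfb and ankrd1b showed no rise above the limit of 3 reads over a group. At this depth a fall of these genes could not have been seen.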
